A study of Mus musculus with 13 samples.

Results

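The transcripts described are those of 9 genes that restrain mitogen-activated protein kinase (MAPK) signaling, namely the dual-specificity phosphatase genes Dusp2, Dusp4, Dusp5, Dusp6, Dusp10 and Dusp16, the Sprouty genes Spry1 and Spry2, and the Sprouty-related gene Spred1. They were found by symbol in the deposited expression table, which held all 9 of them among 12963 genes, and all 9 were among the 12667 genes that passed a filter of at least 10 normalized reads in at least 2 libraries. Spry2 passed it only through CD8 libraries.

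T cells were sorted from tumors of B16-F10, a mouse melanoma line implanted under the skin, and profiled by bulk RNA sequencing. All mice carried the Foxp3-EGFP-DTR allele, which places EGFP and the receptor for diphtheria toxin (DTx) under control of the endogenous Foxp3 promoter, and DTx thereby removes Foxp3-expressing regulatory T (Treg) cells. From mice given PBS came 3 libraries of Treg cells (Treg PBS), 2 of CD4+ conventional T (Tconv) cells (CD4 PBS) and 2 of CD8+ Tconv cells (CD8 PBS), and from mice given DTx came 3 libraries each of CD4+ (CD4 DTx) and CD8+ (CD8 DTx) Tconv cells, which makes 13 in all. The PBS groups of Tconv cells held replicates 2 and 3. No library came from DTx-treated mice without the receptor, so an effect of the toxin itself and the loss of Treg cells cannot be told apart, and the labels give no age.

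MAPK cascades carry signals from the T cell receptor and from growth factor and cytokine receptors to the nucleus through the kinases ERK, JNK and p38. Dual-specificity phosphatases switch these kinases off by removing phosphate from both the threonine and the tyrosine of the activation loop, whereas Sprouty and Spred proteins act higher up, between the receptor and Ras or Raf. Many of these genes are themselves transcribed in response to ERK activity, so that they form negative feedback loops.

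Values are given as normalized reads, which are read counts divided by a size factor for each library. Libraries held 15947556 to 34140486 reads, and 3 reads, taken as the detection floor, were worth 1.98 to 4.10 normalized reads. Levels are compared between groups for each gene and not between genes. Foxp3 spanned 1178 to 1897 in Treg PBS, and no other library exceeded 12.1. Cd8a was at 23475 to 48330 in the CD8 libraries and at 26.4 to 1302 in the others, with CD4 DTx at 103 to 1302. In bulk samples, fewer cells of a type and less RNA per cell cannot be told apart.

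Replicate 3 of each PBS group stood apart from the rest. Fos, an immediate early gene whose transcription follows ERK signaling within minutes, was at 38019, 54781 and 54646 normalized reads in replicate 3 of Treg PBS, CD4 PBS and CD8 PBS, against 427 to 5052 in the other PBS libraries and 271 to 3830 in the DTx libraries. Dusp1, which encodes another MAPK phosphatase of the immediate early class, was at 28191 to 50632 in these 3 libraries and at 3024 to 11808 in the other PBS libraries. Dusp2, Dusp4, Dusp5, Dusp6, Spry1 and Spred1 each had their highest value in replicate 3 in all 3 PBS groups, which makes 6 of the 9 genes against 14.2% of all genes tested. In the DTx groups, replicate 3 was highest in both for 4 of the 9 genes, against 23% of all genes tested. The counts of genes past the test are therefore also given without replicate 3 of the 3 PBS groups, a choice made after seeing the data. That setting leaves 1 library in CD4 PBS and 1 in CD8 PBS, which are then assumed to vary like the other groups. Fewer of all genes passed there in every comparison, so a call lost there is not by itself a result about these genes.

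**Figure D1:**
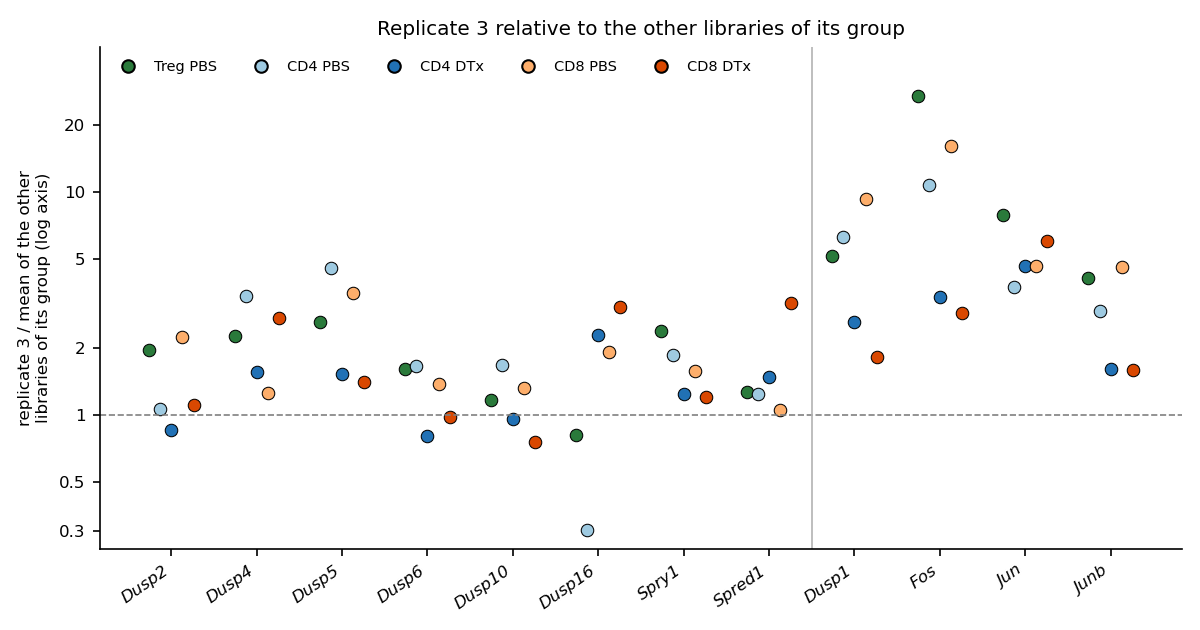
Replicate 3 of each group divided by the mean of the other libraries of the group (vertical log axis, ratio with no unit) for 8 of the 9 genes and, right of the grey line, 4 immediate early genes. Points are groups and the dashed line marks a ratio of 1. Spry2 is left out because the other libraries were at 0 in some groups. For Treg, CD4 and CD8 PBS, the ratios of Dusp5 were 2.61, 4.55 and 3.54 and those of Fos 27.1, 10.8 and 16.1.

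Dusp5 encodes a nuclear phosphatase specific for ERK. Its 3 Treg PBS libraries were at 4603, 2546 and 9327 normalized reads for replicates 1, 2 and 3, and its CD4 PBS libraries were at 1364 and 6206 and its CD8 PBS libraries at 1080 and 3822 for replicates 2 and 3. CD4 DTx was at 2321, 5073 and 5630, and CD8 DTx at 2778, 4011 and 4754. The ranges of all 5 groups overlapped. Within PBS groups, replicate 3 was 2.61 to 4.55 times the mean of the other libraries, and the group means differed by less than that, from 2451 ± 1939 in CD8 PBS (SD, n = 2) to 5492 ± 3477 in Treg PBS (SD, n = 3). Dusp5 passed the test in none of the 8 comparisons between groups. The lowest adjusted p was 0.243, for Treg PBS against CD8 PBS (limma), whose unadjusted p was 0.108.

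The bases upstream of the start were read for 8 of the 9 genes from RefSeq on build GRCm38.p6 (Dusp4 is named only). Dusp5 was highest in the same PBS libraries as Fos, and so were Dusp2, Dusp4, Dusp6, Spry1 and Spred1. Shown are 250 bases each for Dusp5, for Dusp6, which was highest in CD4 DTx, and for Dusp10, which fell in CD4 DTx. They lie at chr19:53528895-53529144, chr10:99262981-99263230 and chr1:184034131-184034380, all on the + strand and written 5′ to 3′, ending at the base before the start. Capitals mark every match to the motifs searched on both strands, which were AP-1 (TGANTCA), the cyclic AMP response element half-site (TGACG), an ETS core (CCGGAA), an NFAT core (GGAAA) and the CArG box, the core of the serum response element. The CArG box was added after the windows had been seen.
Dusp5: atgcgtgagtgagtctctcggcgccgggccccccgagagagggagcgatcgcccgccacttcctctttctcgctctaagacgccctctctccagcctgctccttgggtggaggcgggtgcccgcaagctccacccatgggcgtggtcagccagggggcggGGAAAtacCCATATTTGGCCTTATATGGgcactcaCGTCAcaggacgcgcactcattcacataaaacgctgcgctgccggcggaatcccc
Dusp6: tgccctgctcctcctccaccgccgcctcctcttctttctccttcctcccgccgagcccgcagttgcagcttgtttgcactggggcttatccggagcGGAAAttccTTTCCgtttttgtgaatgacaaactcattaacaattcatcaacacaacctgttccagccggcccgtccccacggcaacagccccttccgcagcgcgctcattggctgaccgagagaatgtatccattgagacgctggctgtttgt
Dusp10: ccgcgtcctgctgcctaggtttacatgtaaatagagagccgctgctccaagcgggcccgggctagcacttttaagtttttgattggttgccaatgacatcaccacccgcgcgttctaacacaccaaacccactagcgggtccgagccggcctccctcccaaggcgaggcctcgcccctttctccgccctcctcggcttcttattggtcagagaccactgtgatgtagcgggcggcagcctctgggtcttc

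Dusp5 held 2 CArG boxes next to each other, starting 82 and 72 bases before the start. It was the 1 gene of the 8 with this motif, which 1.47% of 32851 windows of the same length held. Because the motif was chosen after the windows had been seen, this share is a description and not a test. Dusp2, Dusp6, Spry1 and Spred1, also highest in replicate 3 of the PBS groups, held no CArG box. The TGACG half-site stood 55 bases before the start of Dusp5, in the reverse orientation, and was also found for Dusp16, that is in 2 of 8 genes against 17.8% of windows. Dusp6 held 2 NFAT cores, which were found in 5 of 8 genes and in 55.6% of windows. No match to AP-1 (6.75% of windows) or to the ETS core (12% of windows) was found in the 8 windows, and the Dusp10 window held none of the 5 motifs. A match describes the letters only.

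**Figure D2:**
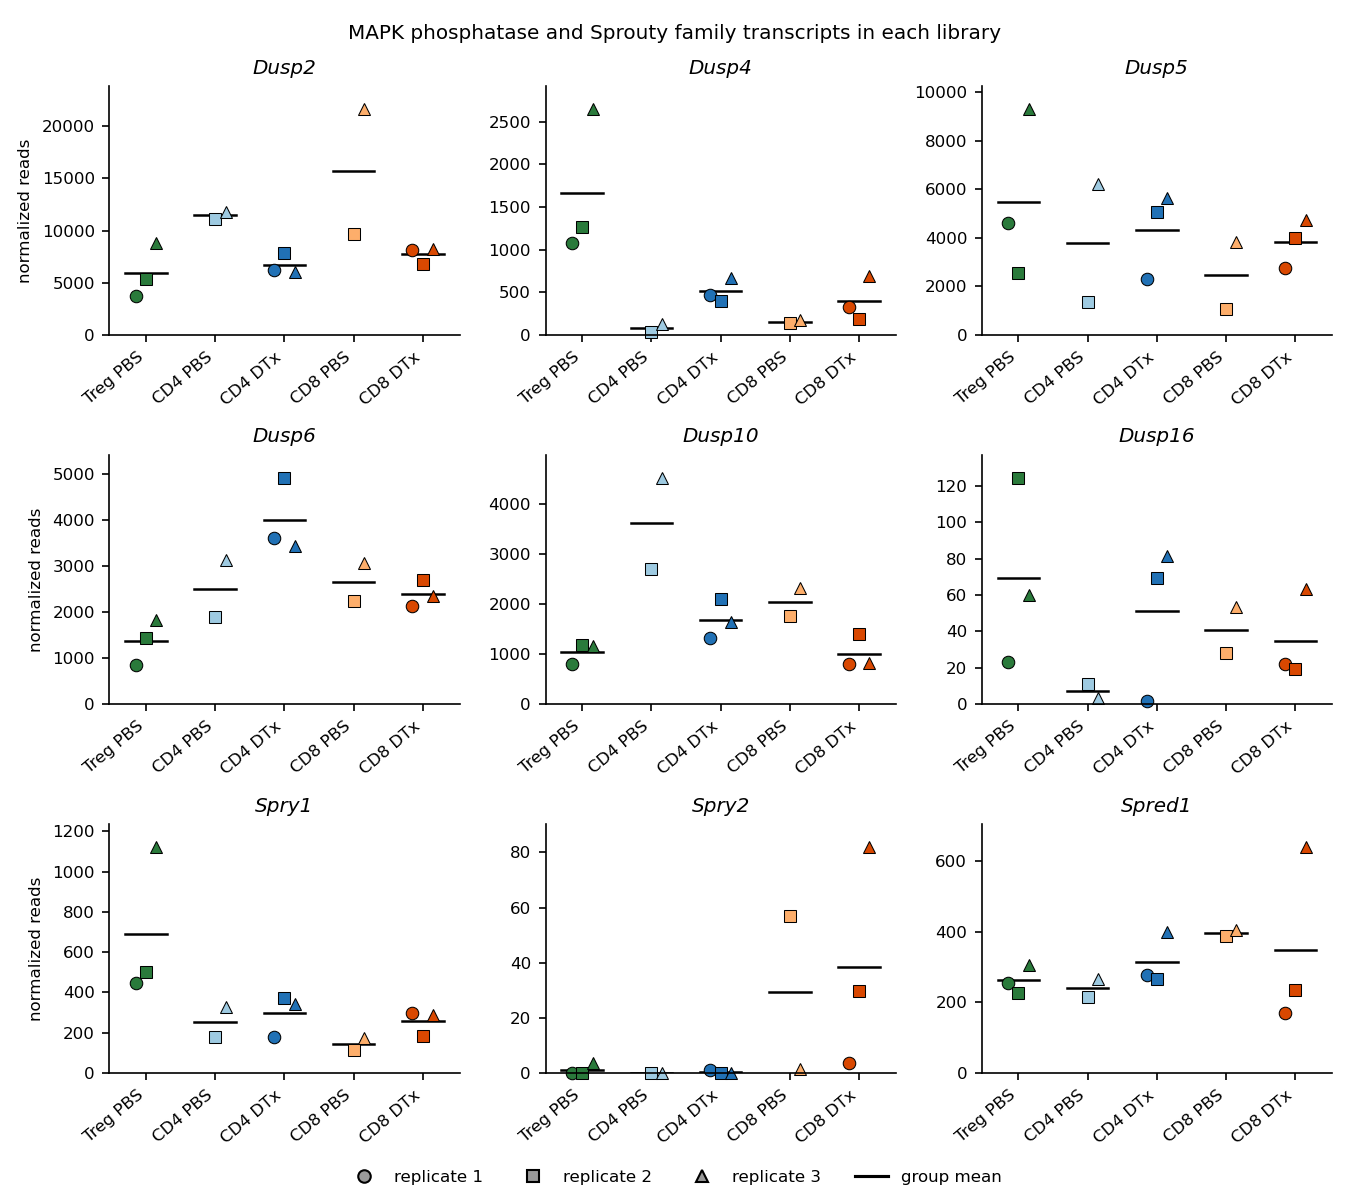
Normalized reads (vertical axes, each from 0) of the 9 genes in the 5 groups. Each point is 1 library, its shape gives the replicate number and the black line is the group mean. Dusp4 was highest in the 3 Treg PBS libraries, Dusp6 in the 3 CD4 DTx libraries and Dusp10 in the 2 CD4 PBS libraries.

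Dusp4, which encodes an inducible nuclear phosphatase acting on ERK and other MAPKs, was highest in Treg cells. The Treg PBS libraries were at 1075, 1272 and 2655 normalized reads for replicates 1, 2 and 3, and the CD4 PBS libraries at 38.3 and 130 for replicates 2 and 3. CD4 DTx was at 465, 401 and 673 for replicates 1, 2 and 3. CD8 PBS was at 139 and 173 for replicates 2 and 3, and CD8 DTx at 329, 182 and 693 for replicates 1, 2 and 3. All Treg PBS libraries lay above all others, and in both Tconv lineages all DTx libraries lay above all PBS libraries. From the highest mean down, the order was Treg PBS, CD4 DTx, CD8 DTx, CD8 PBS and CD4 PBS, and CD4 DTx and CD8 DTx were the neighbors whose ranges overlapped.

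Dusp4 was higher in Treg PBS than in CD4 PBS by 4.42 on the log2 scale (SE 0.62, adjusted p = 0.000438, limma on log2(value + 1)) and higher than in CD8 PBS by 3.30 (SE 0.62, adjusted p = 0.0033). It rose in CD4 DTx over CD4 PBS by 2.81 (SE 0.62, adjusted p = 0.0106). The corresponding difference in CD8 Tconv cells was 1.16 (SE 0.62, adjusted p = 0.256), with a 95% interval from -0.19 to 2.50. The difference between these DTx effects was 1.65 (SE 0.88, adjusted p = 1, unadjusted p = 0.0838), with an interval from -0.26 to 3.56. CD8 DTx was below Treg PBS, with a log2 difference of -2.15 (SE 0.55, adjusted p = 0.0315), while CD4 DTx against Treg PBS was at -1.62 (adjusted p = 0.102). The Treg against CD4 PBS and the CD4 DTx against CD4 PBS differences share the CD4 PBS libraries, of which replicate 2 was the lower. Without that replicate the CD4 DTx difference was 1.94 (adjusted p = 0.141). The call against CD8 DTx was lost without Treg PBS replicate 2 or 3 or CD8 DTx replicate 1 or 2, at adjusted p of 0.0738, 0.134, 0.0802 and 0.132.

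Dusp2, which encodes a nuclear ERK phosphatase induced early in activated lymphocytes, ran the other way. The Treg PBS libraries held 3685, 5350 and 8810 normalized reads, the CD4 PBS libraries 11091 and 11810, and the CD8 PBS libraries 9667 and 21675. After DTx it was at 6191, 7872 and 6021 in CD4 and at 8108, 6792 and 8269 in CD8 Tconv cells. All Treg PBS and all DTx libraries lay below all PBS libraries of Tconv cells. Of these differences, only Treg PBS against CD8 PBS passed the test, with a log2 difference of -1.38 (SE 0.36, adjusted p = 0.0201). It was lost without Treg PBS replicate 1 (adjusted p = 0.0701), Treg PBS replicate 2 (0.0566) or CD8 PBS replicate 3 (-0.79, adjusted p = 0.283). The others were -1.04 for Treg PBS against CD4 PBS (adjusted p = 0.0622), -0.78 for CD4 DTx against CD4 PBS (adjusted p = 0.192) and -0.91 for CD8 DTx against CD8 PBS (adjusted p = 0.133). Without Treg PBS replicate 3, Treg PBS against CD4 PBS was -1.37 (adjusted p = 0.0167), and without CD8 PBS replicate 2, CD8 DTx against CD8 PBS was -1.49 (adjusted p = 0.045).

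Dusp6 encodes a cytoplasmic phosphatase specific for ERK and is a widely used readout of ERK activity. Treg PBS was at 854, 1427 and 1827 normalized reads, CD4 PBS at 1879 and 3119 and CD8 PBS at 2231 and 3058. CD4 DTx was at 3603, 4911 and 3428, and CD8 DTx at 2125, 2679 and 2338. All 3 CD4 DTx libraries lay above the 10 others, and all 3 Treg PBS libraries lay below the 10 others. CD4 DTx was higher than Treg PBS by 1.59 on the log2 scale (SE 0.29, adjusted p = 0.00573). This call held with each library left out in turn and without replicate 3 of the PBS groups. Against CD4 PBS the CD4 DTx difference was 0.70 (adjusted p = 0.192), with an interval from -0.004 to 1.40. Treg PBS was lower than CD8 PBS, at -0.999 (SE 0.32, adjusted p = 0.0491). That call was lost without any 1 of Treg PBS replicate 1 (adjusted p = 0.152), Treg PBS replicate 2 (0.0826), CD8 PBS replicate 2 (0.0896) and CD8 PBS replicate 3 (0.332). Against CD4 PBS, Treg PBS was at -0.89 (adjusted p = 0.0712), and at -1.13 without Treg PBS replicate 3 (adjusted p = 0.0302).

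Dusp10 encodes a phosphatase that prefers JNK and p38 to ERK. The CD4 PBS libraries were at 2702 and 4526 normalized reads, above all others. CD8 PBS was at 1765 and 2322, CD4 DTx at 1319, 2102 and 1630, Treg PBS at 794, 1174 and 1151, and CD8 DTx at 792, 1394 and 826. In both lineages the DTx libraries lay below the PBS libraries. Dusp10 was lower in Treg cells, at -1.77 against CD4 PBS (SE 0.33, adjusted p = 0.0025), and fell in CD4 DTx against CD4 PBS, at -1.08 (SE 0.33, adjusted p = 0.0486). The CD8 DTx difference was nearly the same, at -1.06 (SE 0.33), with an adjusted p of 0.058 and an interval from -1.77 to -0.35. The difference of the DTx effects was -0.02 (SE 0.46), with an interval from -1.02 to 0.99.

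The Dusp10 calls rested on the CD4 PBS libraries. Without CD4 PBS replicate 3, the Treg difference was -1.40 (adjusted p = 0.0503) and the CD4 DTx difference -0.71 (adjusted p = 0.41). The CD4 DTx call was also lost without CD4 PBS replicate 2 (adjusted p = 0.0529), CD4 DTx replicate 1 (0.124) or CD4 DTx replicate 3 (0.0911). In CD8 Tconv cells the difference passed without CD8 DTx replicate 2, at -1.32 (adjusted p = 0.034). Dusp16, whose product also acts on JNK and p38, was low. Treg PBS held 22.9, 125 and 60.0 normalized reads of it and CD4 PBS 10.9 and 3.30, and it was at 1.87, 69.5 and 81.6 in CD4 DTx, at 27.9 and 53.3 in CD8 PBS and at 22.2, 19.3 and 63.3 in CD8 DTx. CD4 PBS lay below Treg PBS and both CD8 groups, but no comparison passed, with Treg PBS against CD4 PBS at 2.99 (SE 1.34, adjusted p = 0.136). CD4 DTx replicate 1 was below the floor of 3 reads, and without it the CD4 DTx difference from CD4 PBS was 3.41 (adjusted p = 0.0399).

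Of the Sprouty family, Spry1, an inhibitor of receptor signaling to Ras and ERK, was highest in Treg PBS. Its Treg PBS libraries held 449, 502 and 1124 normalized reads, against 178 and 330 for CD4 PBS and 112 and 176 for CD8 PBS. CD4 DTx was at 177, 373 and 341, and CD8 DTx at 298, 184 and 289. All Treg PBS libraries lay above the 10 others, and the CD8 DTx libraries lay above the CD8 PBS libraries. Spry1 was higher in Treg PBS than in CD8 PBS by 2.17 (SE 0.51, adjusted p = 0.0111), a call lost without CD8 PBS replicate 2 (1.84, adjusted p = 0.101). Against CD4 PBS the difference was 1.38 (SE 0.51, adjusted p = 0.0738), and CD4 DTx and CD8 DTx were at -1.16 (adjusted p = 0.153) and -1.33 (adjusted p = 0.106) against Treg PBS.

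Spry2, the related inhibitor, was detected above the floor in CD8 Tconv cells and not in the CD4 lineage. It was at 57.1 and 1.33 in CD8 PBS and at 3.70, 29.9 and 82.1 in CD8 DTx, with 0 to 0.94 in the 5 CD4 Tconv libraries and 0 to 3.53 in Treg PBS. CD8 PBS replicate 3 and all Treg and CD4 libraries were at or under 3 reads. The CD8 DTx mean was 38.6 ± 39.9 (SD, n = 3). The 3 CD8 DTx libraries differed 22.2-fold among themselves. Because Spry2 passed the filter on low values only through the CD8 libraries, its levels are given as a description, and it passed the test in no comparison. Spred1, which couples to Ras through neurofibromin, was at 169 to 642 in all 13 libraries. Its lowest and highest values were both in CD8 DTx, at 169, 235 and 642, and it passed the test in no comparison.

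**Figure D3:**
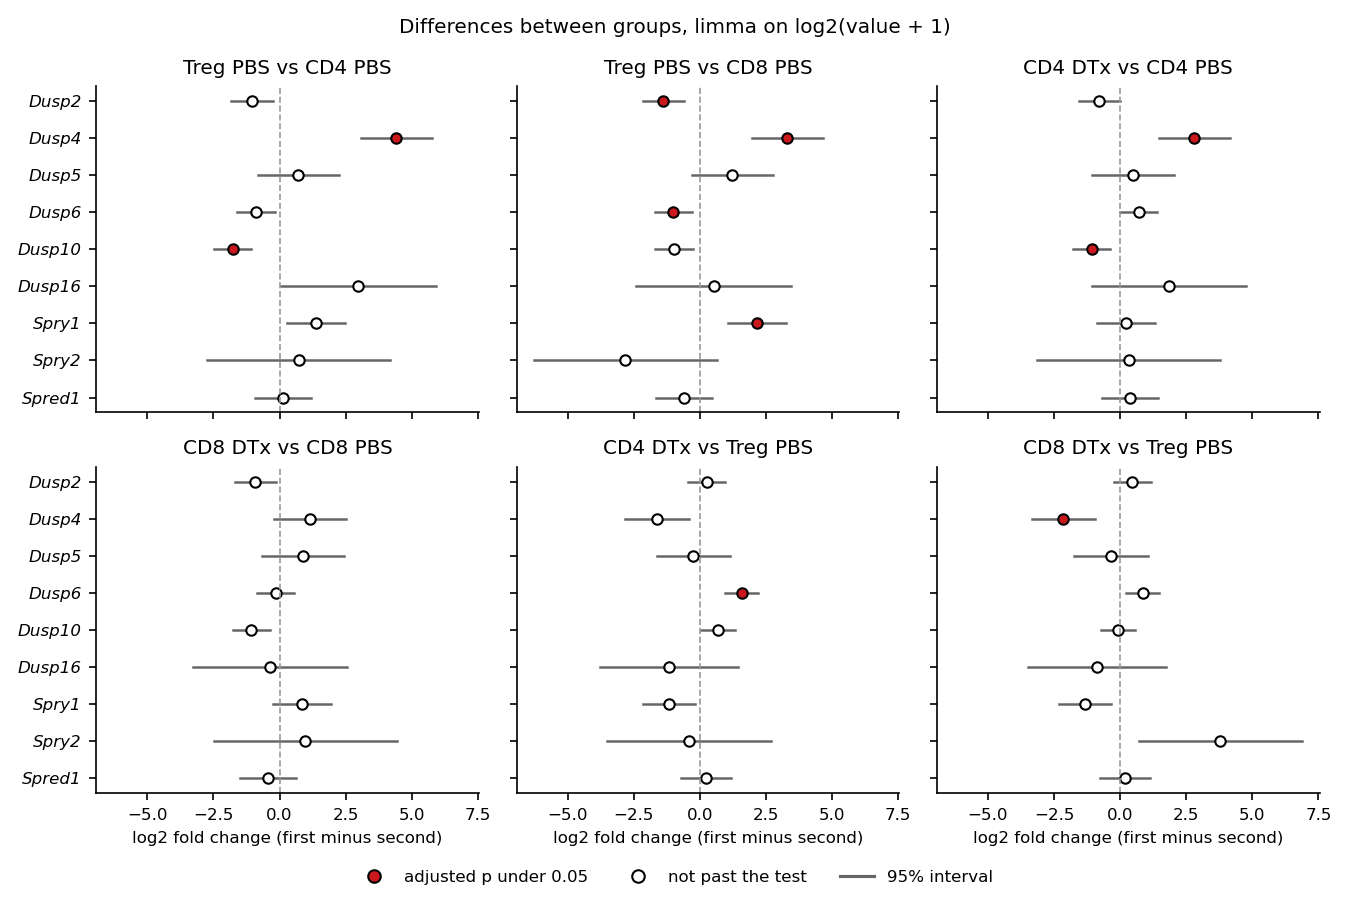
Log2 fold changes of the 9 genes in 6 comparisons (horizontal axes, first group minus second, on the log2(value + 1) scale) with 95% intervals from limma. Red points have an adjusted p under 0.05. Dusp4 lies farthest to the right in Treg PBS against CD4 PBS, at 4.42, and no gene is red in CD8 DTx against CD8 PBS.

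The 9 genes were then read together for each comparison. In Treg PBS against CD4 PBS, 2 of 9 passed the test (Dusp4 higher, Dusp10 lower), where 20.4% of all genes tested did, and 6 of 9 had ranges that did not overlap, where 56.7% of all genes did. Their median log2 difference was 0.72, against 0.01 over all genes. That median is the value of Dusp5, whose ranges overlapped and which did not pass. In Treg PBS against CD8 PBS, 4 of 9 passed (Dusp4 and Spry1 higher, Dusp2 and Dusp6 lower), where 18.7% of all genes did. The ranges of 6 of 9 did not overlap, where 58% of all genes did, and the median was -0.61 against 0.02 over all genes. Without replicate 3 of the PBS groups, Dusp4 and Dusp2 were called in the first comparison and Dusp10 was not. No member was called in the second, where the Dusp4 difference was 3.07. Fewer of all genes were called there as well, so these losses are not particular to the 9 genes.

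After Treg ablation, 2 of 9 passed in CD4 DTx against CD4 PBS (Dusp4 higher, Dusp10 lower), where 12.7% of all genes did. The ranges of 5 of 9 did not overlap, where 46.3% of all genes did, and the median was 0.36 against -0.04 over all genes. In CD8 DTx against CD8 PBS, 0 of 9 passed with limma, where 10.9% of all genes did. The unadjusted p was under 0.05 for 2 of 9 (Dusp2 and Dusp10), and edgeR passed 0 and DESeq2 the same 2 genes. Of all 12667 genes, edgeR passed 1148 and DESeq2 2060, against 1377 with limma. The ranges of 4 of 9 did not overlap, where 43.6% of all genes did, and the median was -0.14 against -0.03 over all genes. No gene of the 9 had a DTx effect that differed between CD4 and CD8 Tconv cells by limma, edgeR or DESeq2, where 0.0474% of all genes did by limma, and 0 of 9 had an unadjusted p under 0.05. Without replicate 3 of the PBS groups, Dusp4 passed in CD4 Tconv cells and Dusp10 did not (-0.71, adjusted p = 0.501).

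Tconv cells after Treg ablation were also compared with Treg cells. In CD4 DTx against Treg PBS, 1 of 9 passed (Dusp6 higher), where 7.91% of all genes did, and the ranges of 4 of 9 did not overlap, where 25.4% of all genes did. In CD8 DTx against Treg PBS, 1 of 9 passed (Dusp4 lower), where 8.6% of all genes did, and the call was lost without replicate 3 of the PBS groups (adjusted p = 0.145). The ranges of 4 of 9, with Spry2 as 1 of them, did not overlap, where 22.6% of all genes did. Between the 2 Tconv lineages none of the 9 genes passed with limma, edgeR or DESeq2. Under PBS, 0 of 9 passed, where 1.08% of all genes did, with Dusp10 alone under an unadjusted p of 0.05 (0.0476). The ranges of 6 of 9, again with Spry2 as 1 of them, did not overlap, where 42.4% of all genes did. Under DTx, 0 of 9 passed, where 1.64% of all genes did, with Dusp6 and Dusp10, leaving Spry2 aside, under an unadjusted p of 0.05 (0.0264 and 0.0217). The ranges of 2 of 9, with Spry2 as 1 of them, did not overlap, where 13.9% of all genes did. Leaving out replicate 3 of the PBS groups, 0 of 9 passed under PBS, under DTx or in the difference of the DTx effects, and Dusp6 passed in CD4 DTx against Treg PBS.

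Of 10 other MAPK phosphatases tested, 5 passed in Treg PBS against CD4 PBS, where 20.4% of all genes did, all of them higher, though Dusp7 passed as lower once values were rescaled by TMM or to equal library totals. In the DTx comparisons 3 rose in CD4 DTx and 2 in CD8 DTx over the PBS cells of the same lineage, where 12.7% and 10.9% of all genes passed. The median log2 difference of the 10 was 1.30, 0.77 and 0.58 in these 3 comparisons, against 0.01, -0.04 and -0.03 over all genes. Dusp14 held 765, 554 and 978 normalized reads in Treg PBS and 76.5 and 34.3 in CD4 PBS. It was at 193, 212 and 250 in CD4 DTx, at 66.8 and 28 in CD8 PBS and at 433, 265 and 275 in CD8 DTx. All DTx libraries lay above all PBS libraries of Tconv cells. It was higher by 3.83 in Treg PBS (adjusted p = 0.000263), 2.06 in CD4 DTx (adjusted p = 0.0171) and 2.84 in CD8 DTx (adjusted p = 0.00424). Its product, also called MKP6, dampens T cell receptor signaling.

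Dusp3, which encodes the small phosphatase VHR, was at 0 in both CD4 PBS libraries and at 0 and 2.67 in CD8 PBS, and at 52 to 155 in Treg PBS, 36.8 to 108 in CD4 DTx and 28.9 to 86.1 in CD8 DTx. Against the CD4 PBS floor of 3 reads in 1 library, it was at least 25.3-fold higher in Treg PBS and at least 19.1-fold higher in CD4 DTx. CD8 PBS held 2 reads of it, to which CD8 DTx stood at a ratio of 37.4 (95% exact counting interval over pooled reads from 10.1 to 312), and Dusp3 passed the test in all 3 comparisons. Ptpn5, a tyrosine phosphatase that acts on ERK and p38, was at 1977 to 2865 in Treg PBS and at 0 to 153 in the 10 other libraries. Dusp19 was higher by 1.19 in Treg PBS (adjusted p = 0.0409), a call lost under equal library totals. Ptpn7, the hematopoietic ERK phosphatase, was higher by 1.05 in Treg PBS (adjusted p = 0.00744) and 0.86 in CD4 DTx (adjusted p = 0.03), the latter lost under equal library totals as well. Without replicate 3 of the PBS groups, 3 passed in Treg PBS (Dusp3, Dusp14 and Ptpn5), 2 in CD4 DTx (Dusp3 and Ptpn5) and 0 in CD8 DTx, where 6.6%, 4.52% and 0.845% of all genes did.

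**Figure D4:**
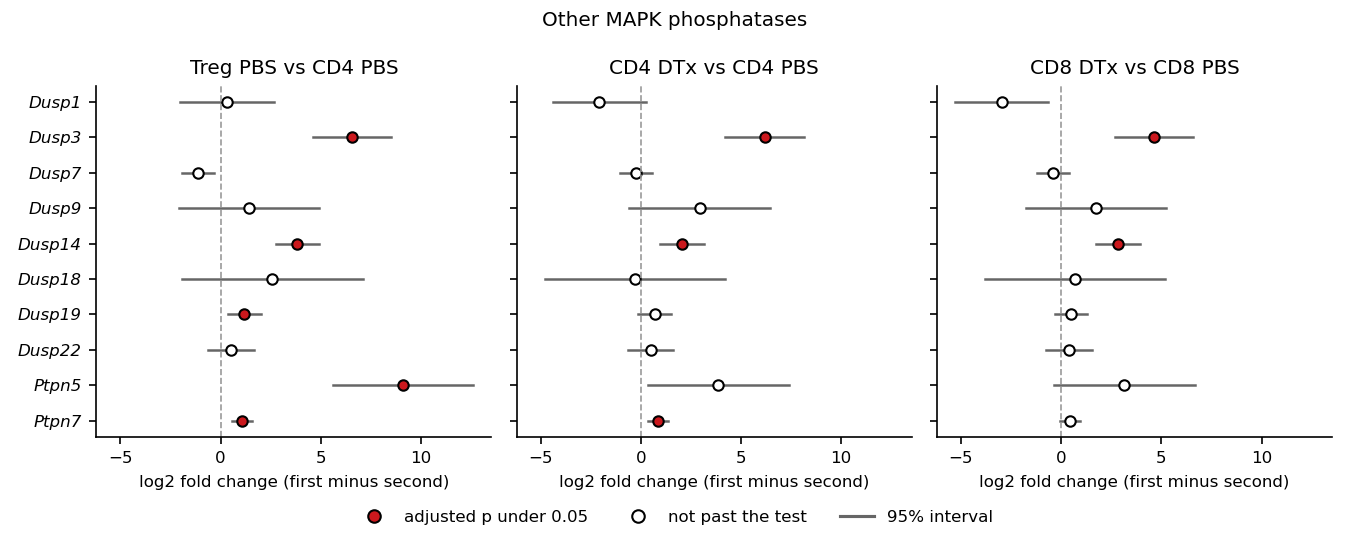
Log2 fold changes of 10 other MAPK phosphatase genes (horizontal axes, first group minus second, on the log2(value + 1) scale) with 95% intervals from limma, in 3 comparisons. Red points have an adjusted p under 0.05. Dusp3 and Dusp14 are red and to the right of 0 in all 3, and Dusp1 in none.

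Of 17 genes of the Ras-ERK cascade, 1 was higher (Ksr1) and 1 lower (Lat) in Treg PBS against CD4 PBS, and 1 rose (Ksr1) in each DTx comparison, again beside 20.4%, 12.7% and 10.9% of all genes. TMM scaling gave 3 lower in Treg PBS (Lat, Sos1 and Rasgrp1). The median log2 difference of the 17 was -0.08, 0.17 and 0.16. Ksr1, a scaffold for Raf, MEK and ERK, was at 0 to 2.43 in the 4 PBS libraries of Tconv cells, at 28.8 to 112 in Treg PBS, at 21.5 to 182 in CD4 DTx and at 40.4 to 176 in CD8 DTx. It was at least 16.7-fold higher in Treg PBS and at least 25.5-fold higher in CD4 DTx than the CD4 PBS floor, and at a ratio of 76.6 (counting interval from 21.0 to 636) to the 2 reads of CD8 PBS. Lat, the adaptor below the T cell receptor, was lower in Treg PBS by a log2 difference of -0.76 (adjusted p = 0.0211). Of 7 Ras GTPase-activating protein genes, 3 passed in Treg PBS against CD4 PBS. Dab2ip, at 74.5 to 154 in Treg PBS, was at 0 in both CD4 PBS libraries and thus at least 28.5-fold higher, while Rasa3 was lower at -2.18 and Rasal3 at -1.71. Rasal1 fell in CD4 DTx, at -1.75, and 0 passed in CD8 DTx, where Rasal1 passed as lower under equal library totals. Spred2 was the 1 other Sprouty or Spred gene measured and fell in CD8 DTx, at -2.003 (adjusted p = 0.0496), a call lost under TMM scaling. Without replicate 3 of the PBS groups, Rasa3 alone of these passed in Treg PBS, Ksr1 alone in CD4 DTx and none in CD8 DTx.

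Of 20 genes of the p38 and JNK cascades, 3 were higher and 3 lower in Treg PBS against CD4 PBS, 2 rose and 2 fell in CD4 DTx, and 2 rose in CD8 DTx, where 20.4%, 12.7% and 10.9% of all genes passed. TMM scaling gave 3 higher and 4 lower in Treg PBS, and equal library totals gave 2 higher and 4 lower there and added Map3k3 as lower in CD8 DTx. The median log2 difference of the 20 was -0.36, -0.37 and -0.46. Map2k3, which encodes a kinase that activates p38, spanned 10890 to 11743 normalized reads in Treg PBS and 2119 to 2530 in the 4 PBS libraries of Tconv cells. It was at 8755 to 9955 in CD4 DTx and at 5943 to 8497 in CD8 DTx. It was higher by 2.27 in Treg PBS (adjusted p = 1.67e-05), 2.01 in CD4 DTx (adjusted p = 6.98e-05) and 1.60 in CD8 DTx (adjusted p = 0.000496), and it passed in all 3 comparisons without replicate 3 of the PBS groups. Mapkapk3, a kinase activated by p38, was higher in the same comparisons by 1.44, 1.47 and 1.69, and in none of them without replicate 3. Map3k3, a kinase that acts further up, was lower in Treg PBS at -1.55 and in CD4 DTx at -1.41. Mapk11, which encodes p38 beta, was lower in Treg PBS at -1.51, and Gadd45a, which binds an upstream kinase, fell in CD4 DTx at -2.99. Map3k3, Mapk11 and Gadd45a did not pass once replicate 3 of the PBS groups was left out. The genes that did were Map2k3 and Gadd45b, both higher, in Treg PBS and Map2k3 alone in CD4 DTx and in CD8 DTx.

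Of 15 ERK-responsive genes, 0 passed in Treg PBS against CD4 PBS with limma (3 had an unadjusted p under 0.05), 2 in CD4 DTx and 4 in CD8 DTx, beside the same 20.4%, 12.7% and 10.9% of all genes. Their median log2 difference was -0.93, -0.84 and -1.63. In CD4 DTx Ier3 rose by 2.76 on the log2 scale and Myc fell, at -2.03. In CD8 DTx all 4 fell, namely Jun at -4.75, Junb at -2.67, Myc at -1.81 and Ier5 at -1.69, of which Ier5 did not pass under TMM scaling. Jun and Junb encode partners of Fos in AP-1. With replicate 3 of the PBS groups left out, the falls no longer passed, Ier3 in CD4 DTx did, and Ier2 was lower in Treg PBS. Fewer of all genes passed there as well. In the CD8 PBS library that was left, Jun was at 4311 and Junb at 12161. CD8 DTx spanned 85.9 to 1341 and 3190 to 5616 for these genes. Myc and Ier5 in that CD8 PBS library also lay above all CD8 DTx libraries. A further 8 genes downstream of ERK were ETS factors and Cic, which is not an ETS factor. Of these, 4 passed in Treg PBS, 1 in CD4 DTx and 2 in CD8 DTx, beside the same shares of all genes. Their median log2 differences were -1.17, -0.82 and -0.71. Elk3 was higher in Treg PBS against CD4 PBS, by 1.18, and Etv3 (-1.87), Elk4 (-1.30) and Ets1 (-1.29) were lower. Ets2 fell in CD4 DTx at -1.52 and in CD8 DTx at -1.32, where Etv3 fell as well, at -1.95. None of the 8 passed without replicate 3.

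For the 5 genes of the 9 that passed in any comparison, the genes with the most similar profile over the 13 libraries were sought among 9722 genes with a mean of at least 100 normalized reads, by the root mean square difference of log2 values centered on their means. The nearest was Ankrd10 for Dusp2 (0.25), Gas2 for Dusp4 (0.65), Nfatc3 for Dusp6 (0.23), Add3 for Dusp10 (0.24) and Irf4 for Spry1 (0.38). The second nearest were Mettl2 (0.26), Fam110a (0.71), Chst10 (0.29), Kmt2c (0.30) and Bcl3 (0.43). The median over all genes ranged from 0.75 for Dusp2 to 1.65 for Dusp4. These differences grow with a gene's own spread, which was widest for Dusp4 of the 5, at an SD of 1.58 on the log2 scale against 0.60 for Dusp2.

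Markers of other cell types differed between groups in the same libraries. The summed level of 4 measured melanocyte markers was 727 to 1197 normalized reads in Treg PBS, 435 to 448 in CD4 PBS, 89 to 170 in CD4 DTx, 171 to 629 in CD8 PBS and 60.7 to 125 in CD8 DTx. It was lower in DTx than in PBS libraries of both lineages and highest in Treg PBS. The means of Dusp4, Dusp5, Dusp16 and Spry1 were also highest in Treg PBS. Dusp4 was higher in DTx than in PBS libraries of both lineages, as Spry1 was in CD8 Tconv cells. The sum of 7 myeloid markers was 1208 to 3726 in Treg PBS, 1208 to 1380 in CD4 PBS, 177 to 2193 in CD4 DTx, 682 to 2146 in CD8 PBS and 1831 to 3156 in CD8 DTx. The CD8 DTx range lay above that of CD4 PBS, and every other pair of groups overlapped. The sum of 3 B cell markers (Cd79a, Cd79b and Ms4a1) was 441 to 911 in Treg PBS, 145 to 220 in CD4 PBS, 92.6 to 158 in CD4 DTx, 794 to 819 in CD8 PBS and 276 to 1296 in CD8 DTx. Of erythroid markers 3 were measured, at sums of 1844 to 3216 in Treg PBS, 948 to 6567 in CD4 PBS, 0 to 1175 in CD4 DTx, 1596 to 6570 in CD8 PBS and 16.6 to 791 in CD8 DTx. Of stromal and endothelial markers only Pecam1, which T cells also express, was measured, at 7092 and 7291 in CD4 PBS, 3762 and 3865 in CD8 PBS and 944 to 2719 in all other libraries. Their part in the differences of the 9 genes was not tested.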

How the data were processed

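Sorted cells were lysed for RNA, and low-input SMART-type libraries were sequenced on an Illumina HiSeq. Per the labels and the study's methods, reads were checked with FastQC, trimmed with Cutadapt and aligned with hisat2 to NCBIM37 (mm9), and uniquely mapped reads were counted per gene. The counter, strand setting and gene filter are not given in the sources used here, so overlapping genes are uncertain. The deposited signal values are named FPM by the authors, but 100% of them were whole reads divided by 1 size factor per library, to within 0.01 of a read. They are called normalized reads. Libraries lacked molecular identifiers, and floors and counting intervals cover counting error only.

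Expression as log2(value + 1) was modelled in a single fit of the 13 libraries, with group as the only term (limma 3.58.1, R 4.3.3, lmFit, contrasts.fit and eBayes with a trend), for the 12667 genes that reached 10 normalized reads in 2 or more libraries. Benjamini-Hochberg adjustment ran over all of them, and adjusted p under 0.05 was the threshold. Fold changes on this scale understate those of low genes. The study's methods used DESeq2, and a 4-fold threshold chose its genes that differed between tumor Treg and CD4+ Tconv cells. DESeq2 1.42.0 and edgeR 4.0.16 on recovered reads, the 4-fold rule, other scalings, filters and pseudocounts, a replicate block and leaving out each library were the alternatives. Scripts were tested on simulated data.

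The study describes the replicates as biological and isolated on independent days. Numbers came from the titles. Same-numbered CD4 DTx and CD8 DTx libraries deviated together (correlations of 0.36, 0.207 and 0.59) and were taken as paired. The block left 0 of 9 genes passing there, where 414 of all 12667 genes did. Correlations between differently numbered libraries were not computed. Members and gene lists were chosen with earlier results of these data known. The named genes were the 9 members, label checks, up to 4 genes per list and comparison with the largest change among those that passed, and the 2 nearest profiles of each member that passed. Fos, Dusp1, Dusp7, Ptpn7 in Treg cells, Sos1, Rasgrp1, Gadd45b and Ier2 were named after their values were seen. 1 gene of the B cell list is not reported here. Of 21 rows the symbols had turned into dates. Promoter windows are RefSeq GRCm38.p6, and no coordinates were taken across builds.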

Additional observations from a re-analysis of the deposited data

How the results depend on the processing

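The counts of the 9 genes that passed are given in the order of comparisons Treg PBS against CD4 PBS (2), CD4 DTx against CD4 PBS (2), CD8 DTx against CD8 PBS (0), CD4 DTx against Treg PBS (1), CD8 DTx against Treg PBS (1) and Treg PBS against CD8 PBS (4). In the same order, the main fit passed 2581, 1612, 1377, 1002, 1089 and 2367 of all 12667 genes. The 4-fold rule gave 1, 1, 0, 0, 1 and 2 of the 9. Of all genes it passed 1292, 868, 692, 508, 624 and 1192. Fitting only the groups compared gave 0 for CD4 DTx against CD4 PBS, 0 for CD8 DTx against Treg PBS and 2 for Treg PBS against CD8 PBS. Of all genes, 983, 833 and 2594 passed in these 3. TMM scaling gave 1 in CD4 DTx against CD4 PBS, as edgeR did, where 1637 and 1395 of all genes passed. Equal library totals moved the median of all genes to -0.18 in CD4 DTx and -0.23 in CD8 DTx against PBS. They gave 4 in Treg PBS against CD4 PBS and 1 in CD8 DTx against CD8 PBS, Dusp10 in the latter. In these comparisons 2605 and 1380 of all genes passed. Of all genes, DESeq2 passed 3270, 2324, 2060, 1543, 1444 and 2974, more than the main fit in each comparison. For the 9 genes it gave 6, 2, 2, 2, 2 and 5. Without replicate 3 of the PBS groups (chosen after seeing the data), the counts were 2, 1, 0, 1, 0 and 0. Leaving out 1 library at a time gave 1 to 4, 0 to 2, 0 to 1, 1 to 1, 0 to 1 and 2 to 4.

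With the replicate block the counts were 4, 1, 0, 2, 3 and 4. Of all genes, the block passed 3210, 2029, 1893, 1739, 1585 and 2977, more than the main fit in each comparison. It added Dusp16 and Spry1 in Treg PBS against CD4 PBS, Dusp4 in CD4 DTx against Treg PBS and Dusp6 and Spry1 in CD8 DTx against Treg PBS, exchanged Dusp6 for Dusp5 in Treg PBS against CD8 PBS, and left Dusp10 in CD4 DTx against CD4 PBS at an adjusted p of 0.0514. Outside the pair of DTx groups, same-numbered libraries correlated between -0.311 and 0.299 in their deviations from the group means. The bar set for pairing was over 0.1 in each of 3 or more pairs. Treg PBS with CD4 DTx or with CD8 DTx did not meet it. Group pairs with CD4 PBS or CD8 PBS held only 2 same-numbered pairs and could not meet it, so the bar does not decide their pairing. Whether same-numbered libraries share a day is not given in the sources used here, while replicate 3 of all 3 PBS groups stood apart together in Fos.

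Over all settings, none of the 35 fold changes with an unadjusted p under 0.1 or a call in any setting changed sign. Of the 46 others, 29 changed sign in at least 1 setting. Of the 10 calls, Dusp4 in Treg PBS against CD4 PBS and Dusp6 in CD4 DTx against Treg PBS passed in every setting that used the adjusted p rule. Dusp16 and Spry2 had libraries at or under 3 reads, so depth limits what their values show. The groups of 2 libraries share the spread of the others in the fit. The p-values set differences of group means against this shared spread between libraries.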
